A study of Homo sapiens with 4 samples.

Results

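Steroid receptor coregulators were followed across LNCaP and C4-2 prostate cancer cells as a set of 9 genes: the p160 coactivators NCOA1, NCOA2 and NCOA3, the further coactivators NCOA4 and NCOA7, the corepressors NCOR1 and NRIP1, and the ligase-type coregulators PIAS1 and TRIM24. They were picked by symbol, as the transcript entries whose RefSeq accession maps to these names, and make up 9 of the 22985 named genes of the series. All 9 passed the filter on low counts. The androgen-dependent line LNCaP, once isolated from a lymph node metastasis, is labelled as primary prostate cancer. Its derivative C4-2, which grows without added androgen, is labelled as castration-resistant disease. Both were grown in RPMI medium with charcoal-stripped serum, which lacks steroids, and nothing else was added per the labels. Each line gave 2 libraries of total RNA depleted of ribosomal RNA. Each line stands for a single tumour lineage, and the labels do not say whether its libraries came from separate cultures, so that p-values measure only the spread between these libraries, which may be technical.

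Nuclear receptors, the steroid receptors among them, bind DNA and recruit coregulators. Coactivators of the p160 family dock on the ligand-binding domain through short leucine-rich motifs and bring in histone acetyltransferases and methyltransferases. Corepressors of the NCOR type hold histone deacetylase on target genes, and NRIP1 docks like a coactivator but recruits repressors. In prostate cells these proteins help set how strongly steroid receptors drive their targets.

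Sense tags in exons came to 58.9 M and 70.5 M (M, 1000000 tags) in the libraries labelled LNCaP and to 163.1 M and 119.1 M in those labelled C4-2. As a share of the totals that the RPKM values were divided by, this was 31.0% and 35.7% in LNCaP and 67.7% and 69.4% in C4-2. Levels are given as CPM, sense tags per 1000000 after TMM scaling, which sets the bulk of genes to no change. With scaling to the RPKM totals instead, log2 fold changes were higher by a median of 1.0 over all genes. Within the deposit, every sample's data are named for the other line. Directions here follow the sample titles and would turn round if the stored names were right. Luminal prostate markers summed to between 2854 and 2876 CPM in LNCaP and between 3479 and 3532 CPM in C4-2, with KLK3, the gene of prostate-specific antigen, at 533.0 and 557.2 CPM in LNCaP and 6.14 and 6.23 in C4-2. Markers of other cell types were low. Basal markers (KRT5, KRT14 and TP63) summed to at most 0.20 CPM in any library, fibroblast markers to at most 11.2, endothelial markers to at most 4.58 and immune markers to at most 3.66, with COL1A2 and CD3E at 0 tags in all 4 libraries. As in any bulk sample, less RNA per cell and fewer cells making it cannot be told apart.

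In C4-2 against LNCaP, 5 of the 9 coregulators were higher, 2 were lower and 2 did not pass the test (edgeR quasi-likelihood test, Benjamini-Hochberg adjusted p under 0.05). Among all 15975 genes tested 80.0% were called, 40.2% higher and 39.7% lower, so a call alone is the usual state of a gene in this comparison. The lines did not overlap for 8 of the 9, against 89.9% of all genes. The sizes were modest. The median absolute log2 fold change of the 9 was 0.26, against 0.64 over all genes, and none of the 9 reached a 2-fold change, which 30.3% of all genes did. The 9 were not matched to other genes by level. Between 44.3% (PIAS1) and 97.4% (NCOA4) of all genes tested had a lower average level. NCOA2 and NRIP1 had the highest fold changes of the 9, and NCOA1 and NCOA3 the lowest.

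**Figure D1:**
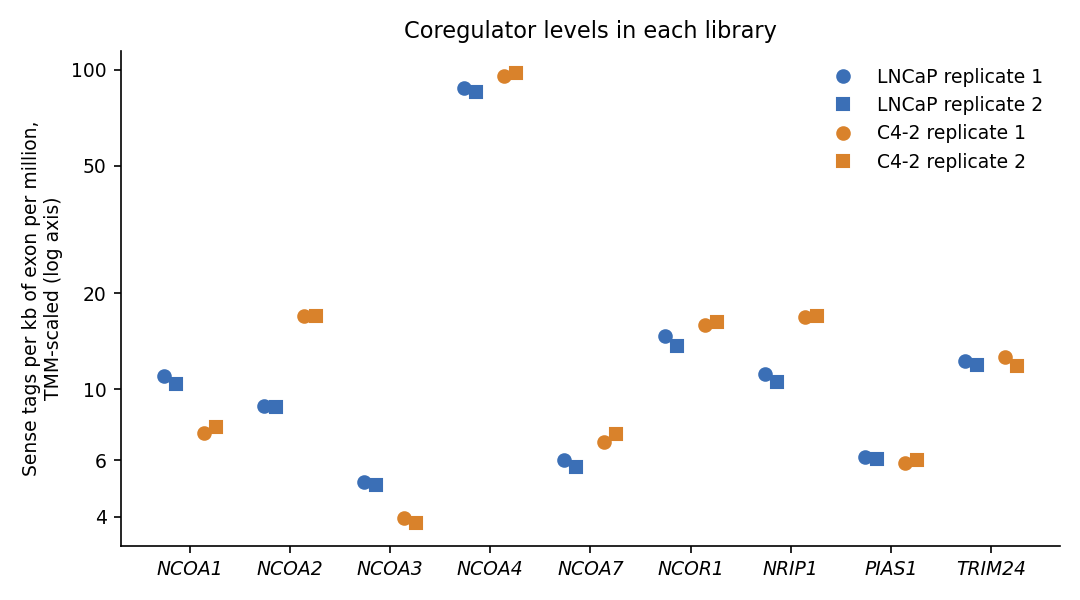
Level of each of the 9 coregulator genes in each library, as TMM-scaled CPM per kilobase of exon on a log axis, with circles for replicate 1 and squares for replicate 2. NCOA4 stood far above the others in all 4 libraries, NCOA2 and NRIP1 were higher in both C4-2 libraries, and NCOA1 and NCOA3 were lower.

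The p160 coactivators moved apart: NCOA2 rose in the libraries labelled C4-2, while NCOA1 and NCOA3 fell relative to the typical gene. NCOA2, which encodes the coactivator also called TIF2 or GRIP1 (hg19 chr8:71024267-71316020, minus strand), had 54.8 and 54.2 CPM in the LNCaP libraries and 104.5 and 104.8 CPM in the C4-2 libraries. Replicates lay close together, and both C4-2 libraries were far above both LNCaP libraries. On the log2 scale NCOA2 was higher by 0.94 ± 0.040 (SE, edgeR adjusted p = 2.52e-07), a 1.92-fold higher level, and 67.0% of all genes tested changed by less in absolute terms.

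NCOA1, which encodes SRC-1, the founding p160 protein (chr2:24807346-24993570, plus strand), had 76.6 and 72.1 CPM in LNCaP against 50.8 and 53.0 CPM in C4-2. Both C4-2 libraries lay below both LNCaP libraries, and the log2 fold change was -0.52 ± 0.051 (SE, adjusted p = 2.58e-05), a level 1.43-fold lower. NCOA3, which encodes AIB1 or SRC-3, a coactivator amplified in some breast cancers (chr20:46130601-46285621, plus strand), had 40.9 and 40.0 CPM in LNCaP and 31.7 and 30.5 CPM in C4-2. NCOA3 was again lower in both C4-2 libraries, at -0.38 ± 0.053 on the log2 scale (adjusted p = 2.27e-04). The fall of NCOA1 and NCOA3 is relative to the bulk of genes. Scaled to library totals they stood at 0.49 (NCOA1) and 0.63 (NCOA3), and NCOA2 at 1.95.

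The make-up of the p160 RNA within a library does not depend on scaling between libraries. The exon share of tags differed between the lines, at 31.0% and 35.7% in LNCaP and 67.7% and 69.4% in C4-2. The part of that exon share in the p160 make-up was not tested. Per kilobase of exon, NCOA2 made up 35.5% and 36.4% of the summed p160 level in the LNCaP libraries and 60.1% and 59.8% in the C4-2 libraries. The largest share thus passed from NCOA1, with 44.02% and 42.9% in LNCaP, to NCOA2, NCOA1 being left with 25.9% and 26.8% in C4-2. NCOA3 held 20.4% and 20.7% in LNCaP and 14.0% and 13.4% in C4-2. The ratio of NCOA2 to NCOA1 was 0.83 ± 0.028 (SD, n = 2) in LNCaP and 2.28 ± 0.065 in C4-2, 2.75 times as high, and that of NCOA2 to NCOA3 was 1.75 ± 0.012 and 4.37 ± 0.13. NCOA1 and NCOA3 kept closer to each other, at a ratio of 2.11 ± 0.058 in LNCaP and 1.92 ± 0.11 in C4-2. Every p160 share differed between the lines by more than the spread of replicates, but an exact permutation test of 2 libraries against 2 cannot go below a two-sided p of 0.33, so no p is given for the shares.

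**Figure D2:**
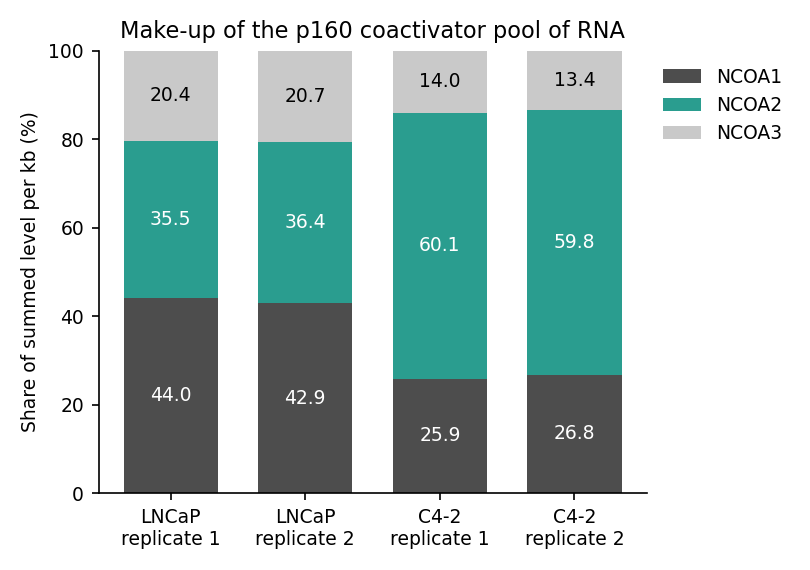
Share of NCOA1, NCOA2 and NCOA3 in their summed level per kilobase of exon, in percent, for each of the 4 libraries. NCOA2 took 35.5% and 36.4% in the LNCaP libraries and 60.1% and 59.8% in the C4-2 libraries.

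NCOA1 is known for products with different C-terminal ends, SRC-1a and SRC-1e, made by leaving out or including a short exon near the 3′ end. The deposited entries with and without it differ by 57 bases, the length of an exon that the GENCODE annotation of hg19 places at chr2:24990948-24991004. In the annotated transcript with this exon the coding sequence ends inside the exon, at base 24990989, and without it the coding sequence runs on to base 24991257. The exon is shown because the tags over it can be compared with those over the rest of the transcript. Capitals mark the exon, and the 10 bases of intron on each side are in lower case.
NCOA1 exon, plus strand: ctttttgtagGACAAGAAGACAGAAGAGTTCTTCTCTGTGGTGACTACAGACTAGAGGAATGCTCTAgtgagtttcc
The tags that the longer entry of NCOA1 has beyond the shorter numbered 39 and 45 in LNCaP and 66 and 56 in C4-2. Per base, this was 1.03 and 1.08 times the density over the rest of NCOA1 in LNCaP and 0.99 and 1.09 times in C4-2. The 95% exact Poisson intervals, which cover counting error only, ran from 0.73 to 1.44 over the 4 libraries and each included 1. A difference in tag density over this exon between the lines was thus not detectable at this depth. Spliced and unspliced RNA were not separated here, so the density does not give how often the exon is included. The 3 NCOA1 entries gave almost the same change, with log2 ratios that all rounded to -0.52, and the 4 of NCOA3 all rounded to -0.38.

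NCOA4 was the most abundant of the 9 and changed little. It encodes a protein first described as a steroid receptor partner and later as the receptor that carries ferritin to autophagy (chr10:51565108-51590734, plus strand). NCOA4 had 328.1 and 317.5 CPM in LNCaP and 357.3 and 363.9 CPM in C4-2. The C4-2 libraries were above the LNCaP libraries without overlap, by 0.16 ± 0.040 on the log2 scale (SE, adjusted p = 0.0065). The call of NCOA4 ended with a stricter filter on low counts (0.037, adjusted p = 0.46), without non-coding entries (0.096, adjusted p = 0.057) and without C4-2 replicate 2 (0.15, adjusted p = 0.084), with adjusted p from 2.8e-17 to 0.46 over the 15 alternatives. GENCODE lists 4 pseudogenes of NCOA4, so some of its tags could belong to copies or have been lost to them, which was not tested.

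NCOA7 encodes a coactivator of estrogen receptor that carries a TLDc domain and, in a short product with its own start site, is induced by interferon (chr6:126102307-126253176, plus strand). NCOA7 had 39.5 and 37.5 CPM in LNCaP and 44.9 and 47.5 CPM in C4-2. Every C4-2 library was above every LNCaP library, and the log2 fold change was 0.26 ± 0.056 (SE, adjusted p = 0.0029). This call of NCOA7 ended with the stricter filter alone among the alternatives (0.14, adjusted p = 0.055, from 2.29e-23 to 0.055 over them).

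The 6 deposited entries of NCOA7 use 3 start sites, and the 250 bases before the second and the third are printed from the hg19 genome because they differ in the motifs they hold. Capitals mark motif matches, before the second start a GC box (GGGCGG) and before the third, that of the short entry, the core of an interferon-stimulated element (GAAA and, after any 2 bases, a second GAAA).
NCOA7 second start, chr6:126111659-126111908, plus strand: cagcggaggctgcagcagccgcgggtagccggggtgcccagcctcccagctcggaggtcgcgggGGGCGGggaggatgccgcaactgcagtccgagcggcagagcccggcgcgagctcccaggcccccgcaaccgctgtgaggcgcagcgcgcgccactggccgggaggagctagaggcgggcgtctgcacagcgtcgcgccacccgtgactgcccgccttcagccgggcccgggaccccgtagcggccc
NCOA7 start of the short entry, chr6:126240120-126240369, plus strand: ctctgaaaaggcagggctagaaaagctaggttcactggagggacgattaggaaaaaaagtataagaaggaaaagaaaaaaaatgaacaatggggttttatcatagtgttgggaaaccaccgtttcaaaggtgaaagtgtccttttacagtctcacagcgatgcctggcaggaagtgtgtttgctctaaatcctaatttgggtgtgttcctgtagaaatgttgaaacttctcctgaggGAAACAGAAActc
The window before the second NCOA7 start is 77.6% G and C with 32 CpG pairs, and that before the third 41.2% with 3. The window before the first start, that of the entry used for the counts (chr6:126102057-126102306), is 46.8% G and C with 5 CpG pairs and held none of the motifs searched. The median over the windows of all 15975 genes was 62.8% with 19. Searched on both strands, the interferon core was found in 2.54% of those windows and the GC box in 59.4%. Each gene gave a single window there, before the entry used for its counts. The coregulators were searched at all deposited starts, so these percentages are not a like measure for them. Of 8 coregulators whose windows at all deposited starts were searched (NCOA2 was not), NCOA7 alone held the interferon core, and none held a palindromic androgen response element (AGAACA and TGTTCT with 3 bases between), which no window of any gene tested held either. A match is a description of the letters and says nothing of binding.

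Tags per base were fewer over the short NCOA7 entry than over the longest one. The deposited RPKM of the short 3′ entry was 0.64 and 0.66 times that of the longest entry, which begins at the first start, in LNCaP and 0.70 times in both C4-2 libraries. The short NCOA7 entry shares its downstream exons with the longer entries, and tags from its own exon were not separated here. In TMM-scaled CPM the short entry had 15.6 and 15.4 in LNCaP and 19.3 and 20.4 in C4-2, a log2 ratio of 0.36, and the other 5 entries ranged from 0.26 to 0.32.

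Of the corepressors, NRIP1 rose in the libraries labelled C4-2 and NCOR1 changed little. NRIP1, which encodes RIP140, a ligand-dependent corepressor and itself a target of steroid receptors (chr21:16333556-16437126, minus strand), had 84.3 and 79.7 CPM in LNCaP and 127.2 and 128.2 CPM in C4-2. Its libraries did not overlap between the lines, and the log2 fold change was 0.64 ± 0.043 (SE, adjusted p = 2.68e-06), a 1.56-fold higher level. NRIP1 thus lay at the middle of the genes tested, 50.1% of which changed by less in absolute terms.

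NCOR1 encodes the scaffold that holds the deacetylase HDAC3 on unliganded receptors (chr17:15933408-16118874, minus strand). NCOR1 had 144.3 and 134.1 CPM in LNCaP and 156.2 and 159.0 CPM in C4-2, without overlap. Its log2 fold change of 0.18 ± 0.049 (SE, adjusted p = 0.0098) ended as a call with the stricter filter (0.056, adjusted p = 0.30), without non-coding entries (0.12, adjusted p = 0.054) and without C4-2 replicate 2 (0.17, adjusted p = 0.061), with adjusted p from 2.74e-19 to 0.30 over the 15 alternatives. The ratio of NRIP1 to NCOR1 per kilobase, free of the scaling, was 0.76 ± 0.0094 (SD, n = 2) in LNCaP and 1.05 ± 0.0071 in C4-2.

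The change of NCOR1 depended on which entry was counted. A short entry that covers 3100 bases at the 5′ end had 64.4 and 59.0 CPM in LNCaP and 59.4 and 61.2 CPM in C4-2. The lines overlapped there, with a log2 ratio of -0.032, while the entry of 9794 bases gave 0.18. The deposited RPKM of the short NCOR1 entry was 1.41 and 1.39 times that of the full entry in LNCaP and 1.20 and 1.22 times in C4-2. Tags per base were thus higher over the short entry than over the full one in every library. This was more so in LNCaP, the libraries with the lower exon share (31.0% and 35.7%). Coverage along the transcript was not computed, and whether a separate short product adds to the ratio was not tested. The part of that share in the NCOR1 pattern was not tested. GENCODE lists 3 copies of NCOR1 as pseudogenes, and how tags that match several places were counted is not given in the sources used here.

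PIAS1 and TRIM24 did not pass the test. PIAS1 encodes a SUMO ligase that modifies steroid receptors and other factors (chr15:68346572-68480404, plus strand). PIAS1 had 14.0 and 13.8 CPM in LNCaP and 13.4 and 13.7 CPM in C4-2. The lines lay next to each other without overlap, and the log2 fold change was -0.041 ± 0.064 (SE, adjusted p = 0.58). TRIM24 encodes TIF1-alpha, a chromatin reader and ubiquitin ligase that acts as a coactivator of nuclear receptors (chr7:138145079-138270332, plus strand). TRIM24 had 49.1 and 47.6 CPM in LNCaP and 50.7 and 47.5 CPM in C4-2, so the lines overlapped, at 0.022 ± 0.055 on the log2 scale (adjusted p = 0.73). The sign of TRIM24 turned with 3 of 15 alternatives and that of PIAS1 with 2. A p that misses the threshold does not show that the lines had equal levels.

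TRIM24 is spliced with a short or a long form of an exon. The long form adds 102 coding bases at chr7:138239610-138239711, and the deposited entries of TRIM24 differ by that length. The stretch is shown because it carries the optional segment. Capitals mark the segment, which opens with GT, the letters of the earlier splice site, and the lower-case bases are 10 on each side, exon before and intron after.
TRIM24 segment, plus strand: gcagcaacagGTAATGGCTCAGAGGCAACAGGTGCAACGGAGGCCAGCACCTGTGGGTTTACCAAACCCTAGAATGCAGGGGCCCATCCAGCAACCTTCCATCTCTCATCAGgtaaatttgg
Tags in this segment of TRIM24 numbered 53 and 61 in LNCaP and 183 and 111 in C4-2. Their density was 0.70 and 0.71 times that of the rest of the transcript in LNCaP (95% exact Poisson intervals 0.52 to 0.92 and 0.54 to 0.91). In C4-2 it was 0.88 and 0.77 times (0.76 to 1.02 and 0.64 to 0.93). The segment was thus less covered than the rest of TRIM24 in 3 of 4 libraries beyond counting error, and the intervals of the lines overlapped.

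**Figure D3:**
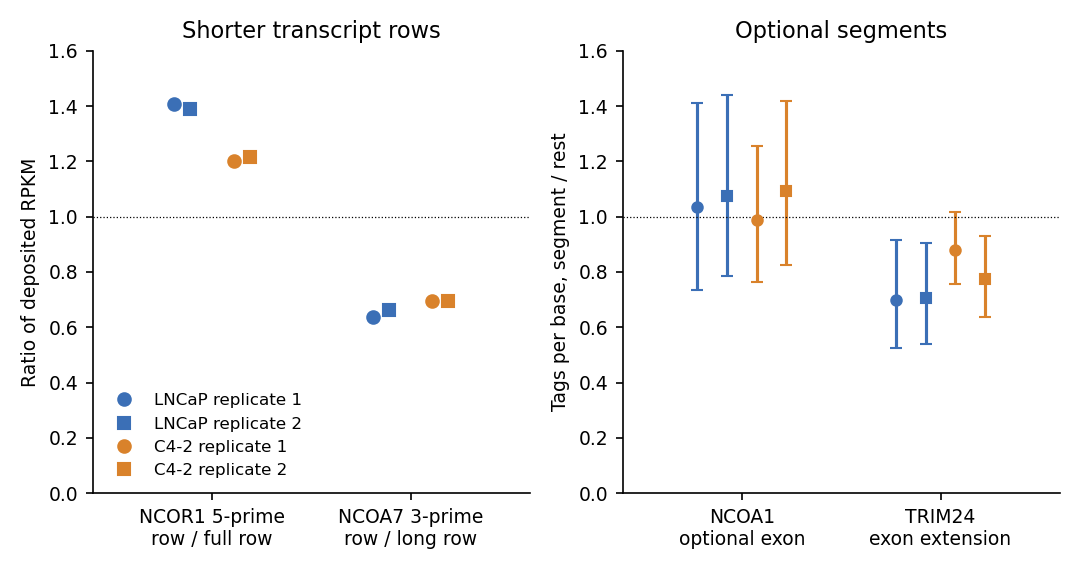
Left, ratio of the deposited RPKM of a short entry to that of the full entry for NCOR1 and NCOA7. Right, tags per base in an optional segment over those in the rest of the transcript for NCOA1 and TRIM24, with 95% Poisson intervals. The NCOR1 ratio was 1.39 to 1.41 in LNCaP and 1.20 to 1.22 in C4-2, and the NCOA1 exon lay near 1 in all 4 libraries.

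Per kilobase of exon and TMM-scaled, the order of the 9 genes differed between the lines. In LNCaP it ran from NCOA4 (86.4 ± 2.02 CPM per kilobase, SD, n = 2) through NCOR1 (14.2 ± 0.74), TRIM24 (12.1 ± 0.26), NRIP1 (10.9 ± 0.43), NCOA1 (10.7 ± 0.46), NCOA2 (8.85 ± 0.074), PIAS1 (6.11 ± 0.053) and NCOA7 (5.88 ± 0.22) to NCOA3 (5.06 ± 0.078). NRIP1 and NCOA1 were the neighbours whose libraries overlapped. In C4-2 NCOA4 (96.5 ± 1.26) was followed by NCOA2 (17.0 ± 0.027), NRIP1 (16.9 ± 0.096), NCOR1 (16.1 ± 0.20), TRIM24 (12.3 ± 0.56), NCOA1 (7.46 ± 0.22), NCOA7 (7.04 ± 0.28), PIAS1 (5.94 ± 0.074) and NCOA3 (3.89 ± 0.11). NCOA2 climbed from the sixth place to the second, though it stood above NRIP1 by only about the spread of the replicates. On the strand opposite to each gene lay at most 1.34% of its tags, the highest being NCOR1 in LNCaP replicate 1.

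**Figure D4:**
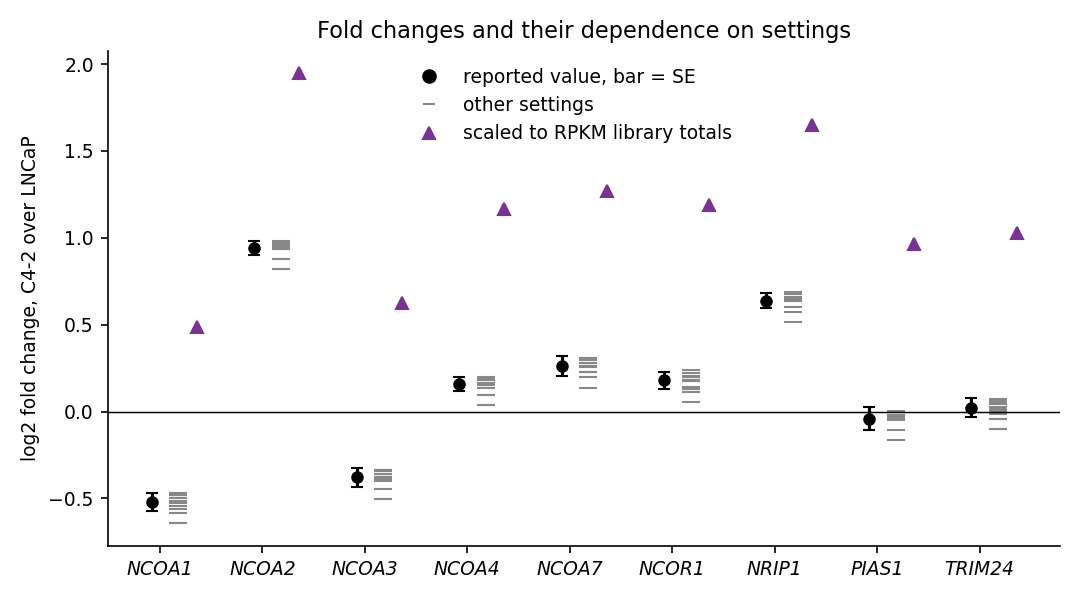
Log2 fold change (C4-2 over LNCaP) of each of the 9 genes as reported, with its SE, beside the values under other settings and with scaling to library totals. NCOA2 and NRIP1 stayed above 0 and NCOA1 and NCOA3 below 0 in all settings but the library totals, where all 9 were above 0.

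Genes that work with these coregulators were taken from lists, whose members are given beside the background of 40.2% of genes called higher and 39.7% lower. Among partners of the p160 proteins 7 of 19 were higher and 11 lower (median log2 fold change -0.26, against -0.011 over all genes). PRMT2, a methyltransferase that binds nuclear receptors, and PELP1, a scaffold for steroid receptors, were higher at 1.36 and 1.31. CALCOCO1 and NCOA6, both coactivators, were lower at -1.16 and -0.82. In the list of the NCOR complex and other corepressors 12 of 24 were higher, 5 lower and 5 did not pass (median 0.18), and NR0B1 and NR0B2 had too few tags for the test. CTBP1, a corepressor, and the deacetylase gene HDAC2 were higher at 1.34 and 1.10, and CTBP2 and LCOR were lower at -0.75 and -0.66.

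In the PIAS family and SUMO pathway 8 of 17 were higher and 7 lower (median -0.052). SAE1, a subunit of the activating enzyme, was higher at 0.79, and the protease gene SENP7 and the modifier SUMO2 were lower at -0.66 and -0.56. Both relatives of TRIM24 were called, TRIM28 higher at 0.89 and TRIM33 lower at -0.58. Of 17 other coregulators of steroid receptors 9 were higher, 4 lower and 2 did not pass (median 0.20), with CCND1 and RNF4 higher at 1.12 and 1.06 and JMJD1C and RNF14 lower at -0.74 and -0.45. FHL2 and TGFB1I1 had too few tags, at most 8 in any library.

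Around NCOA4, 6 of 8 genes of ferritin turnover and iron handling were higher and 1 lower (median 0.35). FTH1, the ferritin heavy chain that NCOA4 binds, had 535.7 ± 5.17 CPM in LNCaP and 932.5 ± 2.04 in C4-2 (0.80), and ACO1, an iron regulatory protein, stood at 0.82. SLC40A1, the iron exporter ferroportin, was lower at -2.65, with 10.3 and 9.78 CPM in LNCaP and 1.61 and 1.59 CPM in C4-2. Among 4 relatives of NCOA7 that share the TLDc domain, TBC1D24 and MEAK7 were higher at 1.13 and 0.52, OXR1 did not pass (0.11) and TLDC2 had too few tags. The list of steroid and retinoid receptors, which these coregulators serve, also held thyroid hormone, vitamin D and PPAR receptors. Of its 18 genes 8 were higher, 4 lower and 3 did not pass (median 0.31). The thyroid receptor gene THRB was higher at 1.20, and PPARA and PPARD were lower at -0.57 and -0.41. ESR1 had 2 tags in C4-2 replicate 1 and 0 in the other libraries, and ESR2 and RXRG also had too few for the test. Over all 109 genes of these lists 101 were tested, of which 53 were higher and 33 lower, with a median of 0.17. Scaled to library totals 95 were higher and 4 lower, while of all 15894 genes tested 11627 were higher and 1664 lower.

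**Figure D5:**
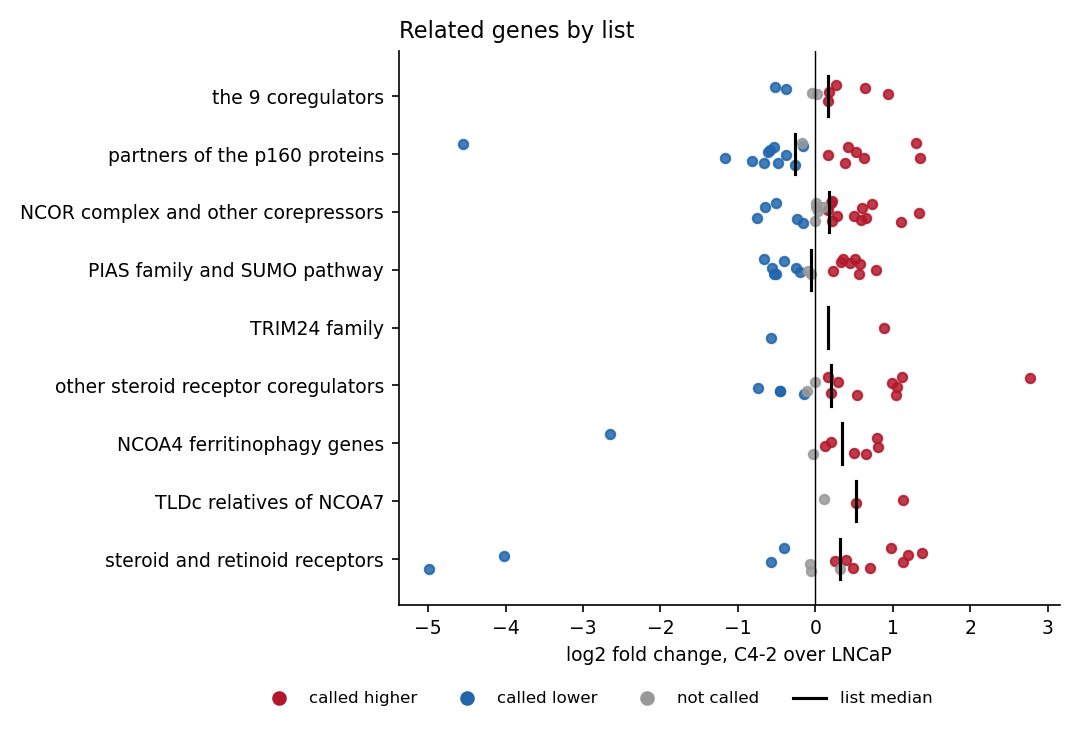
Log2 fold change (C4-2 over LNCaP) of each tested gene in the 9 coregulators and in 8 lists of related genes, coloured by the edgeR call, with a black line at each list's median. The p160 partners had the lowest median, -0.26, and called genes lay on both sides of 0 in every list except the TLDc relatives, where both calls were higher.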

How the data were processed

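Total RNA of LNCaP and C4-2 cells was sequenced in 2 libraries per line. The submitters' processing notes name TopHat2 2.0.6, Bowtie and the build hg19 (GRCh37). For 41351 RefSeq transcript entries the authors deposited raw tag counts on both strands and RPKM values, per the file headers. Which tool counted the tags is not given in the sources used here. Symbols were found for 38974 of 40304 accessions in RefSeq's gene list for GRCh38.p14, from which no coordinate was taken. Unnamed entries held 2.06% to 2.15% of sense tags and were left out. Exon lengths and library totals were recovered by dividing deposited counts by deposited RPKM values. For each symbol the entry with the most sense tags was kept, since entries of a gene share tags.

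Counts were tested with edgeR 4.0.16 (quasi-likelihood test, filterByExpr, TMM, cell line as the only term) in R 4.3.3, with limma 3.58.1 and DESeq2 1.42.0 as alternatives. The procedure was tested on simulated data in which few genes changed. In the real data 80.0% of genes were called, so the simulation does not test the scaling between libraries there. Replicates differed by more than sampling noise (chi-square per degree of freedom 24.4 and 12.2). Sequences and exons came from the hg19 genome and GENCODE v44 lifted to it. The named genes are the 9 coregulators and, per list, the 2 highest and 2 lowest called genes (fewer where fewer were called) whose average CPM on the log2 scale was 2 or more. Genes that complete a count of 5 or fewer were named after their values were seen. Some genes that this rule names are not reported here. The coregulators and lists were chosen with earlier results of these data known.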

Additional observations from a re-analysis of the deposited data

How the results depend on the processing

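In 15 alternatives NCOA2 and NRIP1 kept their direction and call in all, and NCOA1 and NCOA3 in 14. Scaling to library totals, which raised the median log2 fold change over all genes by 1.0 and made 87.5% of calls higher against 50.3%, gave 9 coregulators higher and 0 lower (edgeR, 0 also at an unadjusted p under 0.05; no other tool was run with this scaling), with NCOA1 at 0.49, NCOA3 at 0.63 and PIAS1 at 0.97. Of the related genes 95 were then higher and 4 lower, against 53 and 33. Of all 15894 genes tested with that scaling 11627 were higher and 1664 lower. The stricter filter (at least 1 CPM in all 4 libraries), which lowered all fold changes by a median of 0.12 (a shift of -0.12), left 4 called, 2 of them higher, and TRIM24 at -0.10. Of all 12203 genes tested with this filter 5059 were higher and 5020 lower. Without non-coding entries 3 were higher and TRIM24 stood at -0.042, while of all 13842 genes tested 5616 were higher and 5536 lower. Without a filter PIAS1 stood at 0.0013, and leaving out a library moved TRIM24 between -0.017 (without C4-2 replicate 1) and 0.075 (without C4-2 replicate 2). Without C4-2 replicate 2, NCOA4 stood at 0.15 and NCOR1 at 0.17. The cause of these changes was not tested. The p160 shares moved by less than the replicate spread with summed transcripts and with both strands added. The longest transcripts of these genes are those already used, and leaving out 1 of 2 libraries cannot move a mean by more than their SD, so neither bears on the stability of the shares.

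Replicate numbers shared by the lines are not stated to pair libraries, and deviations of same-numbered libraries correlated at -0.10. With the replicate block 7 coregulators were called, 5 higher and 2 lower, as without it. Of all 15975 genes tested with the block 6259 were higher and 6141 lower. Depth was not limiting for the 9 genes, whose lowest count was 842 tags (PIAS1), but limited the optional exons, which rested on 39 to 183 tags.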

Other observations

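For 4 receptor and coactivator genes of low level, chosen from the lists for their large differences after their values were seen, the levels were as follows. The progesterone receptor gene PGR had 4.89 and 4.79 CPM in the libraries labelled LNCaP and 0.14 and 0.16 CPM in the C4-2 libraries (edgeR log2 fold change -4.99 ± 0.18, SE). The glucocorticoid receptor gene NR3C1 had 1.48 and 1.12 CPM in LNCaP and 0.10 and 0.051 CPM in C4-2 (-4.02 ± 0.35). PPARGC1A, a coactivator of mitochondrial biogenesis, had 3.01 and 2.47 CPM in LNCaP and 0.075 and 0.17 CPM in C4-2 (-4.54 ± 0.31). CITED1, a transcriptional coactivator, had 0.18 and 0.25 CPM in LNCaP and 1.51 and 1.52 CPM in C4-2 (2.77 ± 0.24). All 4 were called with an edgeR adjusted p under 0.05, and the libraries of the lines did not overlap for any of them. Of all genes tested, 80.0% were called and 89.9% did not overlap. Since the 4 were chosen for large differences, neither count adds support.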
